A study of Mus musculus with 5 samples.

Results

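Smarca4 binding was examined at 10 genes that encode mesoderm transcription factors: T (brachyury), Eomes, Tbx6, Mixl1, Gsc, Evx1, Mesp1, Hand1, Hand2 and Twist1. A peak was taken as a member when it overlapped one of these genes or the 10 kb on either side, on GENCODE vM21 and the mouse build mm10. The windows held 35 of the 78911 peaks that 4 lists contain, in 32 of 71929 separate regions, where overlapping peaks count as 1 region. Every one of the 10 genes had at least 1 peak in some list. The share of all coding genes with a peak in any list was not taken, so nothing is read from this count. Smarca4 is an ATPase that drives BAF, a complex that moves nucleosomes, and Smarcc1 is one of the scaffold subunits of BAF. ChIP-seq for Smarca4 was carried out in mouse embryonic stem cells (mESCs) labelled C57/Bl6 that had been weaned from 2i medium, which holds inhibitors of MEK and GSK3, and fixed at day 4 of differentiation. The female Nons library came from XX cells with the non-silencing hairpin and female Smarcc1 knockdown from XX cells with hairpin Smarcc1.6. Male Nons and male Smarcc1 knockdown were the same hairpins in XY cells. The female cells carry GFP and mCherry reporters knocked into the X-linked Hprt gene, and XX mESC cultures are known to lose an X. The differentiation was undirected, so the cells are not a mesoderm population, and expression was not measured by this assay, so the cell state could not be checked against its markers. Each group had 1 library, and 1 further library held input chromatin that was not immunoprecipitated, so no difference between groups has a replicate check and intervals cover counting error only.

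Mesoderm arises from cells that leave the epiblast through the primitive streak. Factors of the T-box, homeobox and basic helix-loop-helix families mark successive steps of this path: T, Eomes, Mixl1, Gsc and Evx1 are known from the streak, Mesp1 from early cardiovascular mesoderm, Tbx6 from paraxial mesoderm, Hand1 and Hand2 from heart and other mesoderm, and Twist1 from mesenchyme. In undifferentiated mESCs such genes are known to be largely silent while their chromatin is kept poised, and BAF is one of the complexes that remodel nucleosomes at developmental genes.

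The libraries differed in depth, which as a percentage of the input was 21.8% in male Nons, 14.2% in male knockdown, 11.6% in female Nons and 5.99% in female knockdown. One read therefore stood for 4.59, 7.03, 8.60 and 16.7 scaled reads in the same order, where scaled reads are reads brought to the depth of the input. Peaks rested on medians of 9, 8, 7 and 5 reads.

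Of the regions that 2 lists share, those at Eomes and Tbx6 are printed first, with 2 regions of high values over input at a gene's start, each on the strand of its gene. Up to 300 bases are shown, without untranslated exon sequence. Capitals mark matches to any of 5 motifs that were searched on both strands in every region: the T-box site TCACACCT, the E-box CANNTG, the Tcf/Lef site CTTTGAT, the Foxh1 site TGTNNATT and the Sp/Klf site GGGCGG. In these stretches all matches were E-boxes, the letters bound by basic helix-loop-helix factors, and the Twist1 stretch had no match.
Eomes, downstream of the gene, chr9:118486951-118487250: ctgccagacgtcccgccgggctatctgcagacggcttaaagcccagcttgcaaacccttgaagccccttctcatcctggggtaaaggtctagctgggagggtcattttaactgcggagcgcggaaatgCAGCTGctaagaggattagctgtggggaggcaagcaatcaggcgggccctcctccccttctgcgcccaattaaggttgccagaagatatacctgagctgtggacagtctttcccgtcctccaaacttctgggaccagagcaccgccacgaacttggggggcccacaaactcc
Tbx6, last part of the gene, chr7:126784651-126784950: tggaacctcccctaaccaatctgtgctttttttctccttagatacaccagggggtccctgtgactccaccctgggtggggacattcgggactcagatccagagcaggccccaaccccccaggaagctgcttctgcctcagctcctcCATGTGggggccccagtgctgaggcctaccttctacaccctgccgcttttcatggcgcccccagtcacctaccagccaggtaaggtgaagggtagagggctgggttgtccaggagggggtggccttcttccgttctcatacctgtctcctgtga
Tbx6, start of the gene, chr7:126781579-126781878: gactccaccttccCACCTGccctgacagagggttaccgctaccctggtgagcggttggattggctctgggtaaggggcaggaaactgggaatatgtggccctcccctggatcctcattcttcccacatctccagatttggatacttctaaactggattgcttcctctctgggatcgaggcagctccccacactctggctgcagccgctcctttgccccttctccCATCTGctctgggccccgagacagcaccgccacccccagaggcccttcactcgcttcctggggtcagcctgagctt
Twist1, intron, chr12:33958645-33958944: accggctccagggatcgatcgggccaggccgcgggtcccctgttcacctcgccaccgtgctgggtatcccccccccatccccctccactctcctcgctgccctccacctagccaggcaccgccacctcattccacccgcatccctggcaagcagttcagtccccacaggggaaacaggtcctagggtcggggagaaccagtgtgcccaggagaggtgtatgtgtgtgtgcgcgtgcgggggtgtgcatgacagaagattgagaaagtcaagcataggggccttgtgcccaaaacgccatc

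Smarca4 peaks lay at 8 of the 10 genes in male Nons and at 8 in male Smarcc1 knockdown, at 3 in female Nons and at none in female Smarcc1 knockdown. The comparison asks where in the mesoderm programme Smarca4 was found, and whether that differed with sex and with the hairpin. Male Nons had 19 peaks in the windows (exact Poisson 95% interval 11.4 to 29.7), male knockdown 13 (6.92 to 22.2), female Nons 3 (0.619 to 8.77) and female knockdown 0 (0 to 3.69). Among all 21755 protein-coding genes with the same flank, 55.8% had a male Nons peak, 39.8% a male knockdown peak, 42.7% a female Nons peak and 10.8% a female knockdown peak. The member windows were short, at 21.5 to 28.1 kb against a median of 37.4 kb, and among the 5313 coding genes with windows in that range the shares were 47.1, 32.4, 33.4 and 6.29%. The members therefore stood at 80% in both male lists above these shares, at 30% in female Nons close to them, and at 0% in female knockdown where fewer than 1 gene in 10 had a peak. With every library thinned to the depth of female knockdown, an expected 3.93 male Nons, 4.18 male knockdown and 1.42 female Nons peaks would remain. Thinning can only lower such numbers, so these values do not show that the lists follow depth. The part of depth in the differences between lists was not tested. Male knockdown peaks lay at 5 of the genes with a flank of 5 kb, and at 3 when only the 50% of its list with the highest value over input was kept. Shares over all coding genes were not taken at these settings, so whether male knockdown stays above them was not tested.

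**Figure D1:**
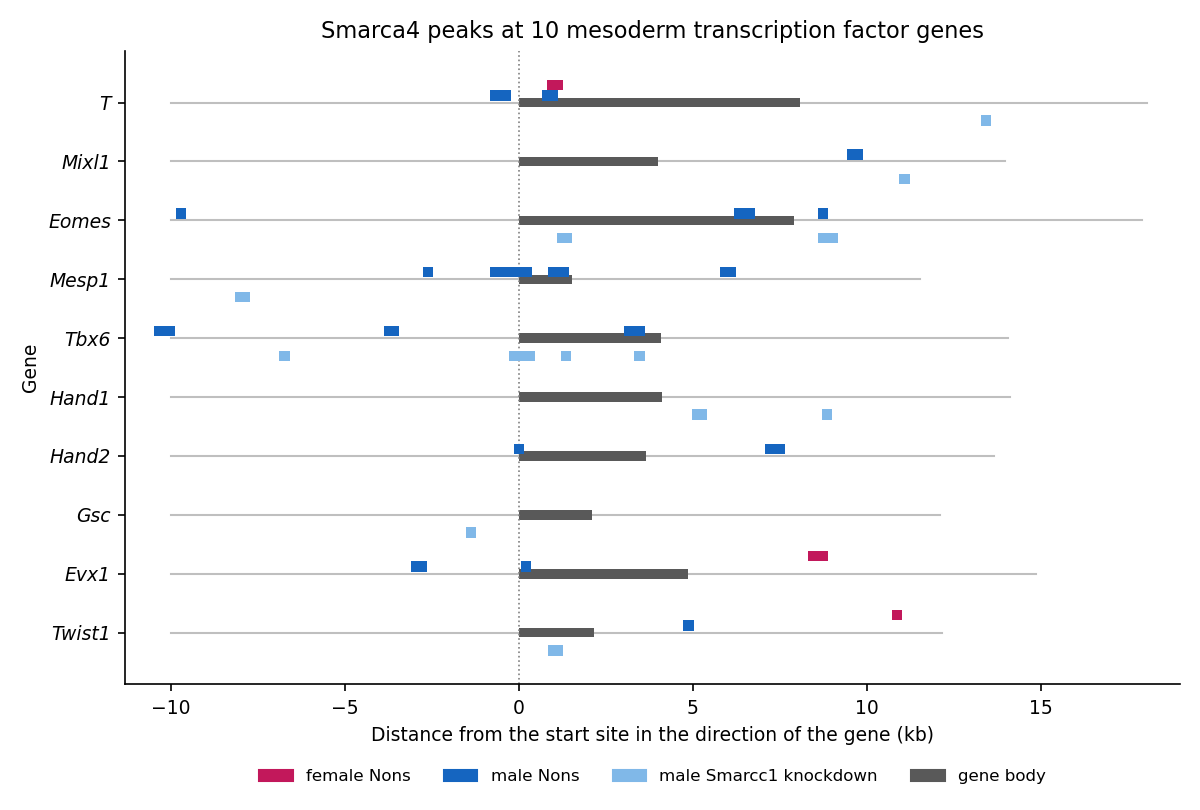
Position of each Smarca4 peak at the 10 genes, as distance in kb from the start site in the direction of the gene. Grey lines are the windows, dark bars the genes, and coloured bars the peaks of each list; female Smarcc1 knockdown has no peak, and only the T, Eomes and Tbx6 windows hold peaks of different lists that overlap.

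**Figure D2:**
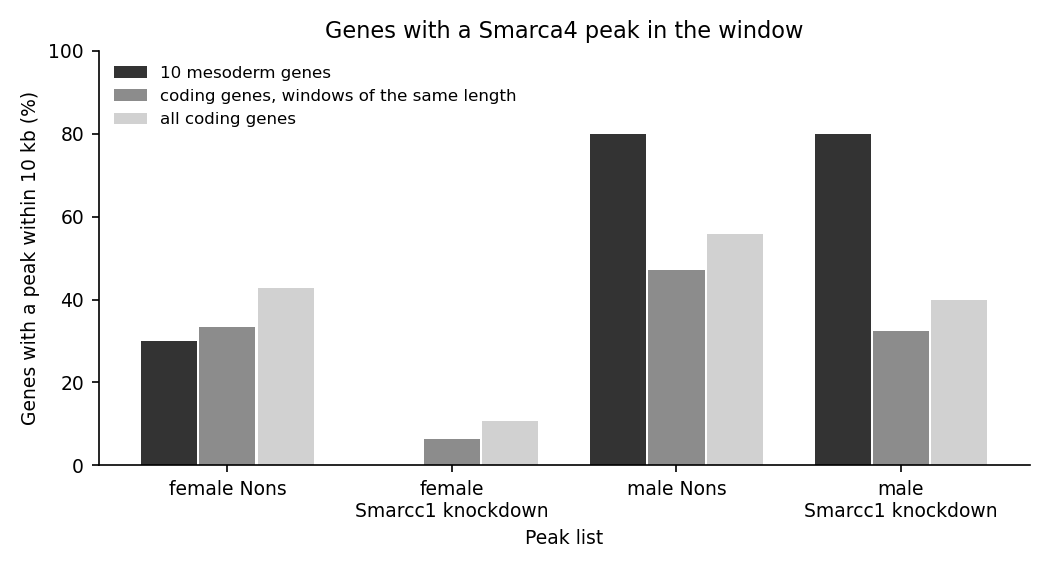
Percentage of genes with at least 1 peak in the gene or within 10 kb, per peak list. The mesoderm genes reach 80% in both male lists, above the coding genes, while in female Nons they lie at 30% and in female Smarcc1 knockdown at 0%.

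Per length, male Nons had 7.83 peaks per 100 kb in the member windows, 2.38 in the windows of all coding genes and 1.45 in the genome. Male knockdown had 5.36, 1.03 and 0.636, and female Nons had 1.24, 1.29 and 0.808. Female knockdown had 0, 0.162 and 0.106. The male lists were denser at the members than in the windows of all coding genes, which were not matched for length. Female Nons was not, but it had only 3 member peaks, with an interval of 0.619 to 8.77. Windows of 10 endoderm and 10 neural genes, described below, held 22 and 17 male Nons peaks against 19 here, so the male Nons density is not particular to the members. Member regions were also richer in GC: their central 300 bases had a median GC content of 57.7%, against 54.7% in all regions, and the part of GC content in the density was not tested.

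Peaks at start sites were found at 7 of the genes in all, a total with no share over all genes beside it. Within 1000 bp of a start of its own gene, male Nons had peaks at 4 of the 10 genes (T, Mesp1, Hand2 and Evx1), male knockdown at 3 (Eomes, Tbx6 and Twist1), female Nons at 1 (T) and female knockdown at 0. Over 21728 coding genes, 22.0% had a promoter peak in male Nons, 11.2% in male knockdown, 11.2% in female Nons and 1.85% in female knockdown. None of the 3 male knockdown genes was among the 4 of male Nons. Over all coding genes 6.23% had a promoter peak in both male lists, which is 55.6% of those with one in male knockdown, and with 3 genes nothing is read from the difference. Of the 32 regions, 10 were at a promoter of their gene. By their centres, 13 regions lay between genes, 8 in introns, 6 in coding exons, 3 in untranslated exons and 2 in exons of non-coding transcripts.

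Peaks of different lists coincided at these genes about as often as elsewhere, with 3 of the 32 member regions (9.38%) in more than 1 list beside 8.8% of all 71929 regions. The member count takes only peaks inside the windows, a limit that the share of all regions does not have. It leaves out a female Nons peak that overlaps the male Nons region in the Gdpd3 intron. Of the 32 regions, 16 were listed in male Nons only, 11 in male knockdown only and 2 in female Nons only. Male Nons shared 1 region with female Nons, at T, and 2 with male knockdown, at Eomes and Tbx6. Absence from a list did not always mean absence of reads. Of the 32 regions, those without reads numbered 0 in male Nons, 1 in male knockdown, 3 in female Nons and 19 in female knockdown. Over the whole lists, not the members alone, listed peaks held as few as 2 reads in male Nons, 7 in male knockdown, 6 in female Nons and 5 in female knockdown.

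**Figure D3:**
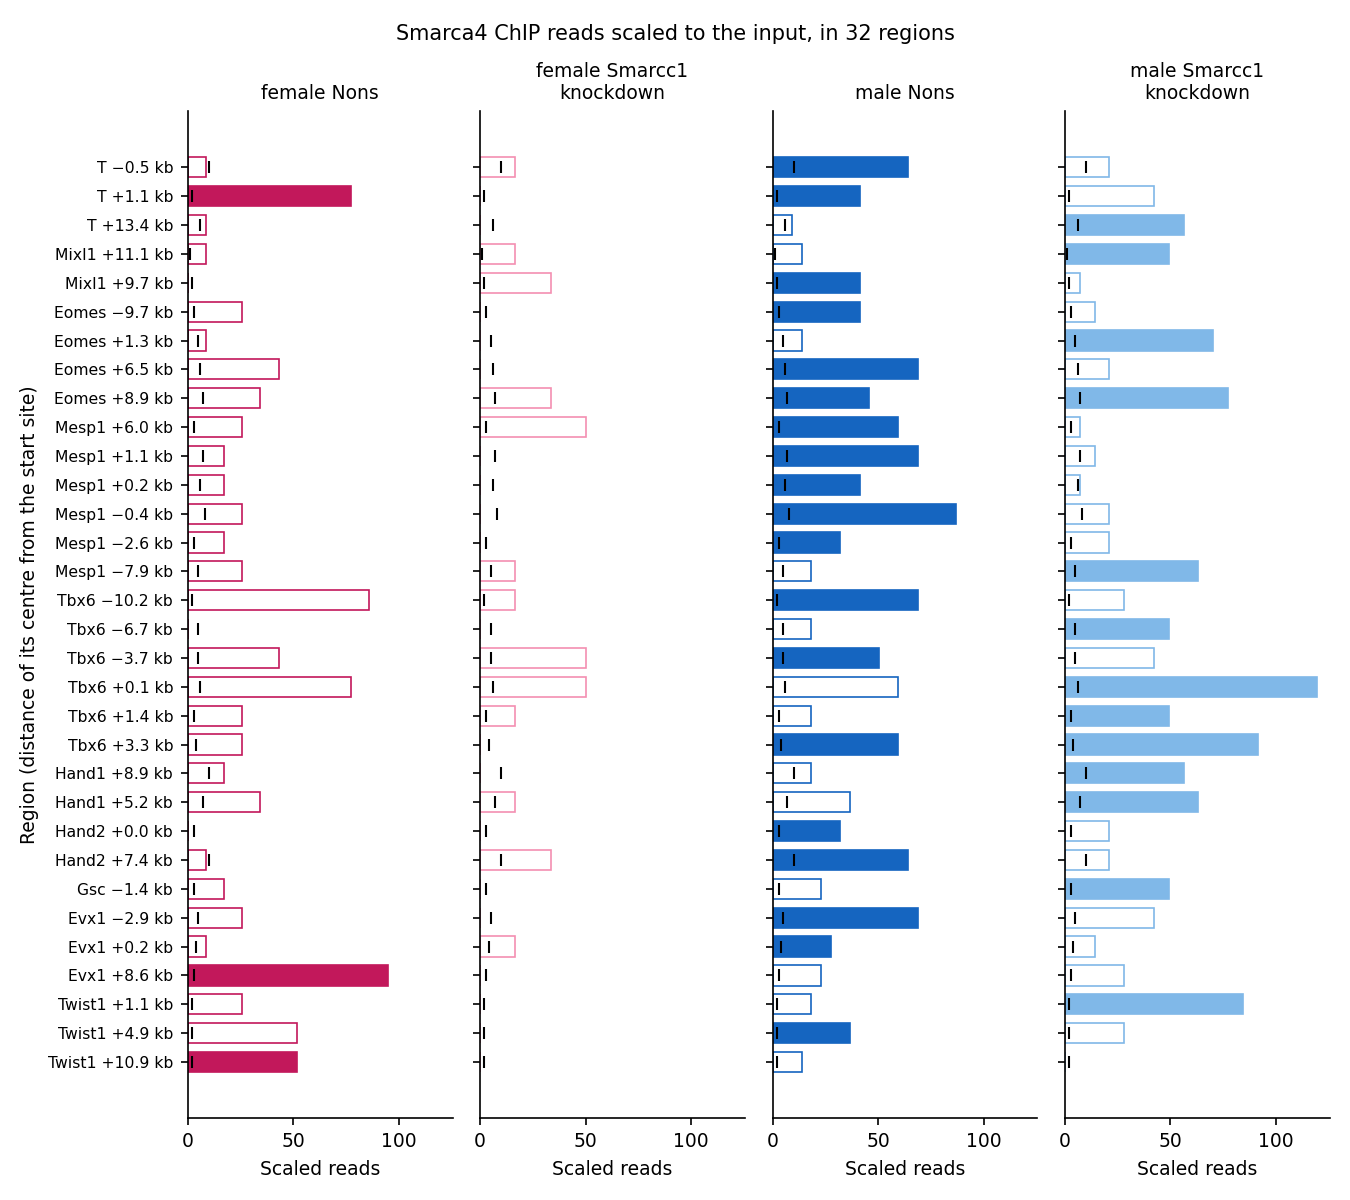
Smarca4 ChIP reads scaled to the input depth (x axis) in each of the 32 regions, one panel per library, with regions named by gene and by distance of the centre from the start site. Filled bars mark regions listed as a peak in that library, open bars regions listed only in another, and black ticks the input reads; female Smarcc1 knockdown has open bars only, at 50.1 scaled reads or fewer.

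Among the T-box genes, T, the founder of the family and needed for posterior mesoderm and notochord, had 4 peaks in 3 regions. The shared region lay in its first part, and its widest listed peaks each spanned 450 bp. Both Nons libraries held 9 reads there, male knockdown held 6 and female knockdown 0, over 2 input reads. Scaled to the input these were 77.4 in female Nons, 41.3 in male Nons, 42.2 in male knockdown and 0 in female knockdown. Both Nons lists chose this region. A count of 0 allows up to 3 reads, or 50.1 scaled reads in female knockdown, so that library cannot be set apart from the male ones here. The region upstream of the start (chr17:8433601-8434200) was listed in male Nons, with 14 reads there, 1 in each female library, 3 in male knockdown and 10 in the input. Another region, 13427 bp past the start and beyond the gene, was listed in male knockdown only, with 8 reads there and 2 in male Nons, 1 in female Nons and 0 in female knockdown, over 6 in the input. The region inside the gene and the one upstream both lie within 1000 bp of an annotated T start.

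Eomes, a T-box factor needed for definitive endoderm and for cells to leave the streak, had 5 peaks in 4 regions. The region downstream of it (chr9:118486801-118487400), in an intron of the non-coding transcript Gm33460, was listed in both male libraries. Its reads were 10 in male Nons, 11 in male knockdown, 4 in female Nons and 2 in female knockdown, over 7 in the input. A region over coding sequence within 1000 bp of a start (chr9:118479301-118479750) was listed in male knockdown, with 10 reads against 3 in male Nons, 1 in female Nons, 0 in female knockdown and 5 in the input. Male Nons alone listed the other 2 regions. The one over a later coding exon (chr9:118484401-118485000) held 15 reads in male Nons, 3 in male knockdown, 5 in female Nons and 0 in female knockdown, over 6 in the input. The one near the upstream edge of the window (chr9:118468351-118468650) held 9, 2, 3 and 0 reads in that order, over 3. At the region both male libraries list, scaled reads were 45.9 in male Nons and 77.3 in male knockdown, and each other Eomes region was chosen by 1 list.

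Tbx6, which directs paraxial mesoderm away from a neural fate, had more peaks than any other member, at 7, in 6 regions. At its start (chr7:126781201-126781950) only male knockdown listed a peak, with 17 reads. There were also 13 reads in male Nons, 9 in female Nons and 3 in female knockdown, over 6 in the input, or 59.6, 77.4 and 50.1 scaled reads beside 119 in male knockdown. All 4 libraries thus lay above the input at the Tbx6 start, although only 1 list names it. The female knockdown value rests on 3 reads. Male knockdown called this region against the same input, so these values are no test of enrichment. The region over its last part (chr7:126784501-126785100) was listed in both male libraries, with 13 reads in each, 3 in female Nons, 0 in female knockdown and 4 in the input. A region between them in a coding exon (chr7:126782701-126783000) was listed in male knockdown with 7 reads, against 4 in male Nons, 3 in female Nons and 1 in female knockdown.

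The remaining Tbx6 regions lay in its neighbours, since this window also holds Aldoa, Gdpd3, Ypel3 and Ppp4c. A male Nons peak at a coding exon of Ypel3, 20 bp from a start site of that gene, held 11 reads beside 6 in male knockdown, 5 in female Nons, 3 in female knockdown and 5 in the input. At the far edge of the window, in an intron of Gdpd3 (chr7:126771001-126771600), a male Nons peak held 15 reads and female Nons held 10 there, while male knockdown held 4, female knockdown 1 and the input 2. A female Nons peak overlaps that region but lies outside the window, so it is not counted among the members. Another region in Gdpd3 was listed in male knockdown with 7 reads, against 4 in male Nons and 0 in either female library. These 3 regions belong to the window by distance and their nearest coding start is not that of Tbx6.

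Among the homeobox genes, Mixl1, a streak factor induced by Nodal signalling, had no peak at the gene itself. Both its regions lay in introns of Lin9, the neighbouring gene for a subunit of a cell cycle regulator, 9658 and 11083 bp past the Mixl1 start. The first (chr1:180687151-180687600) was listed in male Nons with 9 reads, against 1 in male knockdown, 0 in female Nons and 2 in female knockdown, over 2 in the input. The second (chr1:180685801-180686100) was listed in male knockdown with 7 reads, against 3 in male Nons and 1 in either female library, over 1 in the input. Each of these regions was chosen by the list of the library that is high there. Gsc, known from the organizer and the anterior streak, had the fewest peaks, 1 in male knockdown in an exon of the non-coding transcript Gm10000 (chr12:104474551-104474850). It held 7 reads there, 5 in male Nons, 2 in female Nons, 0 in female knockdown and 3 in the input.

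Evx1, an even-skipped homeobox factor of the posterior streak, had 3 peaks. Male Nons listed its start (chr6:52313551-52313850), with 6 reads against 2 in male knockdown and 1 in either female library, over 4 in the input. Male Nons also listed an exon of the divergent non-coding transcript Evx1os (chr6:52310401-52310850), with 15 reads against 6 in male knockdown, 3 in female Nons and 0 in female knockdown, over 5. Female Nons listed a region downstream of the gene (chr6:52321801-52322400), where it held 11 reads against 5 in male Nons, 4 in male knockdown and 0 in female knockdown, over 3 in the input. Scaled, that was 94.6 in female Nons beside 22.9 and 28.1 in the male libraries, and each Evx1 region was chosen by the list of 1 Nons library.

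Among the basic helix-loop-helix genes, Mesp1, a factor of early cardiovascular mesoderm, had 6 peaks, and 5 of them were in male Nons. In male Nons 13.4% of all coding genes had at least 5 peaks, and 6.89% of those with windows of the members' length, a count looked up after the Mesp1 value was seen. Adjoining peaks covered its start (chr7:79793401-79793850 and chr7:79793851-79794600). The upstream one held 19 reads in male Nons, 3 in male knockdown, 3 in female Nons and 0 in female knockdown, over 8 in the input, and the other held 9, 1, 2 and 0 in that order, over 6. Scaled, the upstream peak gave 87.1, 21.1, 25.8 and 0 in that order, and the region was listed in male Nons alone. A region inside the gene (chr7:79792351-79792950) held 15, 2, 2 and 0 reads, over 7 in the input. The other male Nons regions lay outside the gene, with 13, 1, 3 and 3 reads over 3 beyond its 3′ end and 7, 3, 2 and 0 over 3 upstream of the start. These regions belong to the members only through the male Nons list. Only the region farthest upstream (chr7:79801501-79801950) was listed in male knockdown, with 9 reads against 4 in male Nons, 3 in female Nons and 1 in female knockdown, over 5. Over all 6 regions Mesp1 held 67 male Nons and 19 male knockdown reads, and since the lists chose the regions this sum is a description only.

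Hand1 and Hand2, paralogues that act in heart development and, for Hand1, in extraembryonic tissue, were listed in different male libraries. Hand1 had 2 male knockdown peaks, both beyond its 3′ end. The nearer one held 9 reads in male knockdown, 8 in male Nons, 4 in female Nons and 1 in female knockdown, over 7 in the input. The farther one (chr11:57823801-57824100) held 8, 4, 2 and 0 in that order, over 10 in the input. Both were chosen by the male knockdown list. At the nearer one male knockdown held 1 read more than male Nons, or 63.2 against 36.7 scaled reads. Hand2 had 2 male Nons peaks. The one over its start (chr8:57320851-57321150), which it shares with the antisense transcript Hand2os1, held 7 reads in male Nons, 3 in male knockdown, 0 in either female library and 3 in the input. The one downstream (chr8:57328051-57328650) held 14 in male Nons, 3 in male knockdown, 1 in female Nons and 2 in female knockdown, over 10. Without strand in a ChIP assay, the Hand2 start cannot be told apart from that of Hand2os1.

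Twist1, a factor of mesenchyme and of epithelial-mesenchymal transition, had 1 peak in each list but female knockdown, at 3 different places. Male knockdown listed the intron (chr12:33958501-33958950), with 12 reads against 4 in male Nons, 3 in female Nons and 0 in female knockdown, over 2 in the input. Male Nons listed a region 4879 bp past the start, with 8 reads against 4 in male knockdown, 6 in female Nons and 0 in female knockdown, over 2. Female Nons listed one 10879 bp past the start, with 6 reads against 3 in male Nons and 0 in either knockdown library, over 2. Female knockdown had 0 reads at all 3 Twist1 regions, and a count of 0 allows up to 3 reads, or 50.1 scaled reads in this library, beside 25.8 to 51.6 in female Nons.

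Summed over the member regions, scaled reads were lower in female Smarcc1 knockdown, the shallowest library, than in female Nons. Mixl1 and Hand2 were exceptions, with 50.1 and 33.4 scaled reads in female knockdown against 8.60 in female Nons at each, which rest on 3 and 2 reads against 1. No region was chosen by its reads. It held 0 reads in 19 of the 32 regions and at most 3 in any, while female Nons had 0 in 3 regions and at most 11. In the 30 regions that a male list names, female knockdown held 22 reads and female Nons 92. Scaled to depth, the ratio of knockdown to Nons was 0.464 (exact conditional binomial 95% interval 0.278 to 0.746), and the whole interval lies below 1. Over the 52183 autosomal regions chosen in the same way it was 0.625 (0.619 to 0.632), inside the interval of the members, so no difference of the members from other regions was detectable. Both sets kept regions that a female library also lists. In the 28 member regions that neither female library lists, the ratio was 0.559 (0.326 to 0.918). Autosomal regions limited in this way gave 0.692 (0.684 to 0.700).

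In males the same ratio was 0.670 (0.330 to 1.29) over the 4 regions that a female list names, from 14 knockdown and 32 Nons reads. Over 23398 autosomal regions it was 0.971 (0.962 to 0.980), and the interval of the members includes both that value and 1. Male Nons itself lists the T region and the Gdpd3 intron among these 4. The Gdpd3 intron counts here through the female Nons peak outside the window. In the 2 regions that neither male library lists, the ratio was 0.766 (0.169 to 2.86), from 4 knockdown and 8 Nons reads. The sexes were not compared beyond these values. Between the Nons libraries, the 13 regions of the knockdown lists, all named by male knockdown, gave a ratio of female to male of 0.877 (0.573 to 1.32). Over 19210 autosomal regions named by either knockdown list it was 1.11 (1.09 to 1.12), so the sets were not chosen alike. In the 11 of the 13 member regions that neither Nons library lists, the ratio was 1.01 (0.619 to 1.61). Beside the 3 listed peaks of female Nons and 19 of male Nons, no difference in scaled reads between these libraries was detectable in these member regions. A male library chose them, so the comparison is not free of sex.

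Against the input, scaled reads were 5.46 times the input reads in female Nons (4.16 to 7.14) over the 30 member regions that another list names. In male Nons they were 6.85 times (5.04 to 9.34; 17 regions), in male knockdown 5.87 times (4.31 to 7.96; 21 regions) and in female knockdown 2.45 times (1.49 to 3.85; 32 regions). Autosomal regions chosen alike gave 6.06, 5.72, 5.35 and 3.85. The female knockdown interval ended just under the value of all regions, and the other intervals included theirs. That value of all regions included regions that female knockdown itself lists, while it lists no member region. Without them it was 3.71 (3.67 to 3.74), inside the interval of the members. All 4 member values lay above the input. Every list was called against this same input library, which favours regions with few input reads, so these values are no test of enrichment.

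**Figure D4:**
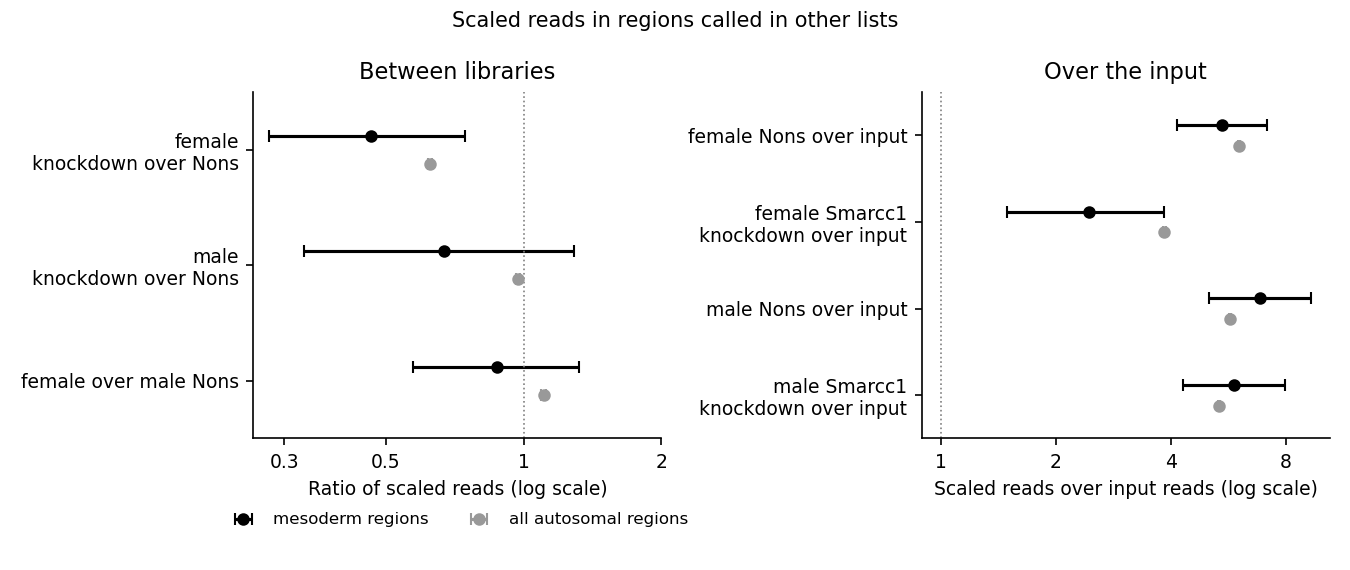
Ratio of scaled reads between libraries (left) and of scaled reads over input reads (right), on log axes. Regions are those called in a list other than those of the libraries compared, including regions that a compared library also lists. Points are ratios and bars exact 95% intervals for counting error; for the mesoderm regions the female ratio of knockdown to Nons is 0.464 and that over the input in female Smarcc1 knockdown is 2.45, the lowest mesoderm value of each panel.

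No member region passed a test. A model with additive terms for sex and hairpin was fitted to the reads of 71887 regions. With edgeR's quasi-likelihood test and Benjamini-Hochberg adjustment at 0.05 it called 0 regions between the sexes (0%) and 0 between the hairpins (0%), and 320 and 296 had an unadjusted p under 0.05. None of the 32 member regions was among those, with lowest unadjusted p of 0.0816 for sex, at the last part of Tbx6, and 0.135 for the hairpin, at the Gdpd3 intron. DESeq2 also called 0 regions for each. The fit left 1 residual degree of freedom and estimated a dispersion of 0.395, so a lack of calls does not show equal binding.

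The wider mesoderm programme looked much like the members in male Nons. Of 30 further genes of the streak and mesoderm, among them the signals Nodal, Wnt3 and Bmp4 and the factors Mesp2, Msgn1 and Foxc1, 25 had a peak in male Nons, 17 in male knockdown, 15 in female Nons, 1 in female knockdown and 27 in any list. As for the members, the count over any list has no share over all genes beside it. Wnt3, a ligand that starts the streak, had 9 male Nons, 4 male knockdown, 6 female Nons and 1 female knockdown peaks in its window. Wnt3a, which maintains posterior mesoderm, had 8, 2, 2 and 0 in that order, and Foxf1, a factor of lateral mesoderm, had 5, 5, 2 and 0. Wnt3, Wnt3a and Foxf1 had the most male Nons peaks of the 30 genes and do not stand for the others. Nodal, Msgn1, Isl1, Snai2 and Cdx4 had 0 in male Nons. Among all coding genes, 13.4% had at least 5 male Nons peaks. One peak upstream of Mesp1 also lies in the window of Mesp2 and is counted in both lists. The single female knockdown peak of both mesoderm lists was the one at Wnt3.

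Genes of the other germ layers gave similar counts. Of 10 endoderm genes, 8 had a peak in male Nons, 7 in male knockdown, 6 in female Nons and 0 in female knockdown, and of 10 neural genes 8, 7, 2 and 0 did. The endoderm factor gene Gata4 had 4, 3, 2 and 0 peaks and the neural factor gene Pax6 had 4, 5, 0 and 0. Male Nons peaks thus lay at 8 of 10 genes in all 3 lists of 10, and nothing in these counts was particular to mesoderm. Female Nons had peaks at 3 mesoderm, 6 endoderm and 2 neural genes of 10 each.

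The T-box site was found in 4 of the 32 regions (12.5%), against 1.69% of all 71929 regions in windows of the same 300 bases. Of these regions 3 were at Mesp1 and 1 was downstream of Hand1. Of the Mesp1 sites, 2 are shown with 14 bases on either side, the site in capitals, on the strand where it reads TCACACCT, and the other lies in an untranslated exon and is not printed.
Mesp1, beyond the gene, chr7:79787750-79787785: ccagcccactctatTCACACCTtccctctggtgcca
Mesp1, upstream, chr7:79801810-79801845: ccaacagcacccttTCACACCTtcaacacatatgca

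The other motifs were nearer to the background. An E-box was in 87.5% of member regions and 84.5% of all regions, a Tcf/Lef site in 9.38 and 3.09% (3 member regions), an Sp/Klf site in 15.6 and 10.7% (5), and a Foxh1 site in 3.13 and 8.95% (1). The E-box and Sp/Klf letters can each overlap other sites, and a match is not evidence of binding. Member regions held a median of 9.5 CG dinucleotides in 300 bases, against 5 in all regions. The 10 promoter regions had a median of 16 and the 22 others 8, and the range ran from 0 upstream of the Mesp1 start to 27 downstream of Hand1. Median GC content was 61.3% at promoters and 57% elsewhere.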

How the data were processed

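Per the study's methods, reads of 75 bp went through trim_galore and then bowtie2 on mm10 (a reporting form names tophat). Seqmonk removed duplicates and called peaks in each library against the input. The submitters' notes name Bowtie2 and MACS2 without versions. The deposited ChIP values are a signal per peak that the authors scaled to input depth, and the deposited input values are counts of reads. All ChIP values were whole multiples of 1 step per library (100% within 0.01 reads), so reads were recovered by dividing by it. All peak widths were multiples of 150 bp. Depth limits precision, and a floor of 3 reads stands for 13.8 scaled reads in male Nons, 21.1 in male knockdown, 25.8 in female Nons and 50.1 in female knockdown.

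Groups came from sample titles. Peaks were assigned to GENCODE vM21 genes, and overlapping peaks joined into regions with the values of the widest peak inside the window. Peak ends lay within the mm10 chromosome lengths, and sequences came from RefSeq GRCm38.p6, the same build. The lists hold no fold or q, so peaks were ranked by scaled reads over input reads plus 1. Ratios used regions called in lists other than those compared, without regions of 50 or more input reads. Recovered reads were tested with edgeR 4.0.16 (glmQLFit) in R 4.3.3 with library sizes in the ratio of depths, and with DESeq2 1.42.0, after a check on simulated reads. Alternatives were a 5 kb flank, the top 50% of each list, thinning to the shallowest library, another overlap, narrower peaks, regions not called in the libraries compared, TMM and a minimum of 20 reads. The 10 members, the gene lists, the motifs and the rule that every region is described were chosen with earlier results of these data known. Ratios over the input were added after the data were examined. The sequences of 2 regions are not reported here.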

Additional observations from a re-analysis of the deposited data

How the results depend on the processing

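Thinned to the depth of female knockdown, with peaks kept at 5 reads or more, the windows would hold an expected 1.42 female Nons, 3.93 male Nons and 4.18 male knockdown peaks, of 7858, 5030 and 4516 in the whole lists, and female knockdown stayed at 0 of 2781. With the 50% of each list of highest value over input, male Nons kept 10 peaks and male knockdown 4, at 3 genes. With a flank of 5 kb male knockdown had peaks at 5 genes. No share over all coding genes was taken at either setting, so nothing is read from these counts of genes. In regions that male Nons did not itself list, its reads over input were 4.90 times (3.37 to 7.14; 13 regions), an alternative added once the data had been seen. The other counts stayed within 1.5 times and the other ratios within their intervals, and edgeR with TMM or with at least 20 reads, and DESeq2, called 0 regions. No paired analysis was possible because the labels give no pairs of replicates, other than the additive fit itself, which compares the hairpins within each sex. With 1 library per group none was left out in turn. With a median of 5 to 9 reads per peak, differences at single regions were not detectable.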
